A study of Mus musculus with 12 samples.

Results

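The transcription factors that give hepatocytes their identity were compared in the livers of mice with and without the serine synthesis enzyme Phgdh in hepatocytes. The group was made up of 9 genes, namely Foxa1, Foxa2, Foxa3, Hnf4a, Cebpa, Cebpb, Onecut1, Prox1 and Nr5a2. They were listed by name, but with earlier results of these data known. All 9 of the 9 genes had a probe on the array, identified through the RefSeq accession of the probe, and 8 entered the test, of 16916 genes tested in all. The controls, called Floxed, were Phgdh flox/flox mice without Cre, and the mutants, called LKO, were Alb+/Cre;Phgdh flox/flox littermates, in which the albumin promoter drives Cre in hepatocytes. Both groups were C57BL/6 males, 30 weeks old, kept on chow that contained casein, and both carried the floxed alleles. Liver RNA of 6 mice of each genotype was hybridized to 12 single-color Agilent arrays, 1 mouse to an array. The albumin promoter is not active in the endothelial, Kupffer and stellate cells that share the liver. An LKO liver thus still holds cells with an intact Phgdh gene. Whether bile duct cells carried the deletion was not examined here. Only LKO mice carried the Cre transgene, so effects of Cre and of the deletion cannot be told apart. In whole-liver RNA, fewer cells of a type and less RNA per cell cannot be told apart either.

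Hepatocytes keep their gene program through a network of transcription factors that bind the promoters and enhancers of liver genes and of each other. The Foxa proteins are forkhead factors that can bind closed chromatin and open it for other factors. Foxa1 and Foxa2 act together when the liver forms, and Foxa3 joins them in the differentiated hepatocyte. Hnf4a is a nuclear receptor that binds a large share of the genes active in hepatocytes, and the C/EBP proteins Cebpa and Cebpb are leucine zipper factors of metabolic and acute phase genes. Onecut1, also called Hnf6, is a cut homeodomain factor of hepatocytes and bile ducts. Prox1 is a homeodomain factor of hepatocytes and of lymphatic endothelium, and Nr5a2, also called Lrh1, is a nuclear receptor of bile acid and cholesterol genes.

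The promoters of the 3 Foxa paralogs are shown because these genes are compared with each other below. Each run is 300 bases of the RefSeq promoter table for build GRCm38.p6, read 5′ to 3′ along the gene, and all 3 genes lie on the minus strand. The windows are chr12:57546062-57546361 for Foxa1, chr2:148046920-148047219 for the start site of Foxa2 listed as number 1 of 3, and chr7:19023490-19023789 for Foxa3. Capitals mark matches to any of 6 motifs.
Foxa1: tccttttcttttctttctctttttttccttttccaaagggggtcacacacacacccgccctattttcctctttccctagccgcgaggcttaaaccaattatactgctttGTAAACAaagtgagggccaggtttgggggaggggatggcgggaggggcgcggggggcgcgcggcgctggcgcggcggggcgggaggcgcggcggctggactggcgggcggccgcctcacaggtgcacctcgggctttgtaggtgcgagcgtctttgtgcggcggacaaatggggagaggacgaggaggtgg
Foxa2: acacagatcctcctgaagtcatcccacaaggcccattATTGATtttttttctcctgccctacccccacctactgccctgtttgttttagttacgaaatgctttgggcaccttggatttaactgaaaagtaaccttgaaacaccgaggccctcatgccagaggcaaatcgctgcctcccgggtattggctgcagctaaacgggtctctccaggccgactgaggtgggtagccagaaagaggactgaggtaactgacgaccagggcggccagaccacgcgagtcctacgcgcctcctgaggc
Foxa3: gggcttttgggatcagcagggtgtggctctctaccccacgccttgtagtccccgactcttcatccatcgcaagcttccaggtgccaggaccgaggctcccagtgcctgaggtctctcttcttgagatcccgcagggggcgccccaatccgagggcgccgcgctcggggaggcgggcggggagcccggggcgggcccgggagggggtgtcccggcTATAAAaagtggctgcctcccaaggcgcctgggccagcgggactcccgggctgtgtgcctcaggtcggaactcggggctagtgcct
The capitals in Foxa1 match the forkhead motif TGTTTAC on the opposite strand, beginning at position -141 from the start site. Those in Foxa2 match the Onecut1 motif ATCAAT on the opposite strand at -213, and those in Foxa3 match the TATA box motif TATAAA at -36. The other motifs searched were CAAGGTCA for Nr5a2, TTGCNNAA for C/EBP and CAAAGTCCA for Hnf4a, on both strands, and matches of different motifs did not overlap in the 3 windows. Of 32851 promoters in the table, 3.65% held the forkhead motif, 7.54% the Onecut1 motif and 13.6% the TATA box motif. The Nr5a2, C/EBP and Hnf4a motifs were held by 1.56%, 10.8% and 0.475%. Among the other factors, a TATAAA match also began at -30 in Cebpa and at 21 in Cebpb, and on the opposite strand at -34 in Prox1 and at -181 in Nr5a2, in the window of the start site listed as number 1 for the last 2 genes. The Foxa3 window was richest in G and C among these 3, with 69% against 62.3% in Foxa1 and 54.3% in Foxa2, where the median of all promoters was 52.7%. The Foxa2 windows of start sites 2 and 3, not shown, held 64% and 51.7%. That of start site 3 also had a TATAAA match on the opposite strand at -208. A match describes the letters of the window and shows neither a bound site nor a cause.

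The arrays lay on 3 slides, with Floxed mice 1 to 4 on slide 1, Floxed mice 5 and 6 and LKO mice 1 and 2 on slide 2, and LKO mice 3 to 6 on slide 3. Genotype and slide are thus largely confounded, and the slide 2 difference of 2 against 2 mice is given beside the result of each factor. Of 39429 probes, 21614 to 23913 were well above background on Floxed arrays and 22399 to 24252 on LKO arrays. The deleted gene, Phgdh, had a log2 signal of 4.81 to 5.50 in Floxed mice and of 4.23 to 5.30 in LKO mice, a log2 fold change of -0.48 on slides together and of -0.055 within slide 2. LKO mice 1 and 2, at 5.07 and 5.30, lay inside the Floxed range, so the array did not set them apart by this gene, and the change of each factor is also given without them. Without them every LKO mouse is on slide 3 and every Floxed mouse on slides 1 and 2, so genotype and slide are then fully confounded. The slide 2 differences and the fits with slide as a fixed block rest on these same 2 LKO mice. The other Phgdh probe passed background on only 4 arrays, 3 of them LKO, and its means of 2.87 in Floxed and 3.17 in LKO mice ran the other way. Where the probes lie relative to the deleted exons was not examined here. The liver label was borne out by the hepatocyte markers, 9 of 10 of which were tested, at a mean log2 signal of 17.41 to 17.51 in Floxed and 17.43 to 17.53 in LKO mice.

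Foxa3 and Foxa1 were lower in LKO livers, each at about 0.64 of the Floxed level. The other 6 tested factors, among them Hnf4a and Cebpa, were not called. Of the 8 point estimates 7 lay below 0, as did 51.2% of those of all tested genes. The factors were read on the same arrays and some vary together, so no joint fall is read from this count. At an unadjusted limma p below 0.05, the criterion of the array methods, 2 of the 8 tested factors were called (25%), both lower, where 1413 of the 16916 tested genes (8.35%) were called in either direction, 581 (3.43%) of them lower and 832 (4.92%) higher. The median log2 fold change of the 8 factors was -0.22, and that of all tested genes was -0.0035. With limma p values adjusted by Benjamini-Hochberg over all tested genes, no factor and no gene was called, and the smallest adjusted p of any gene was 0.132.

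**Figure D1:**
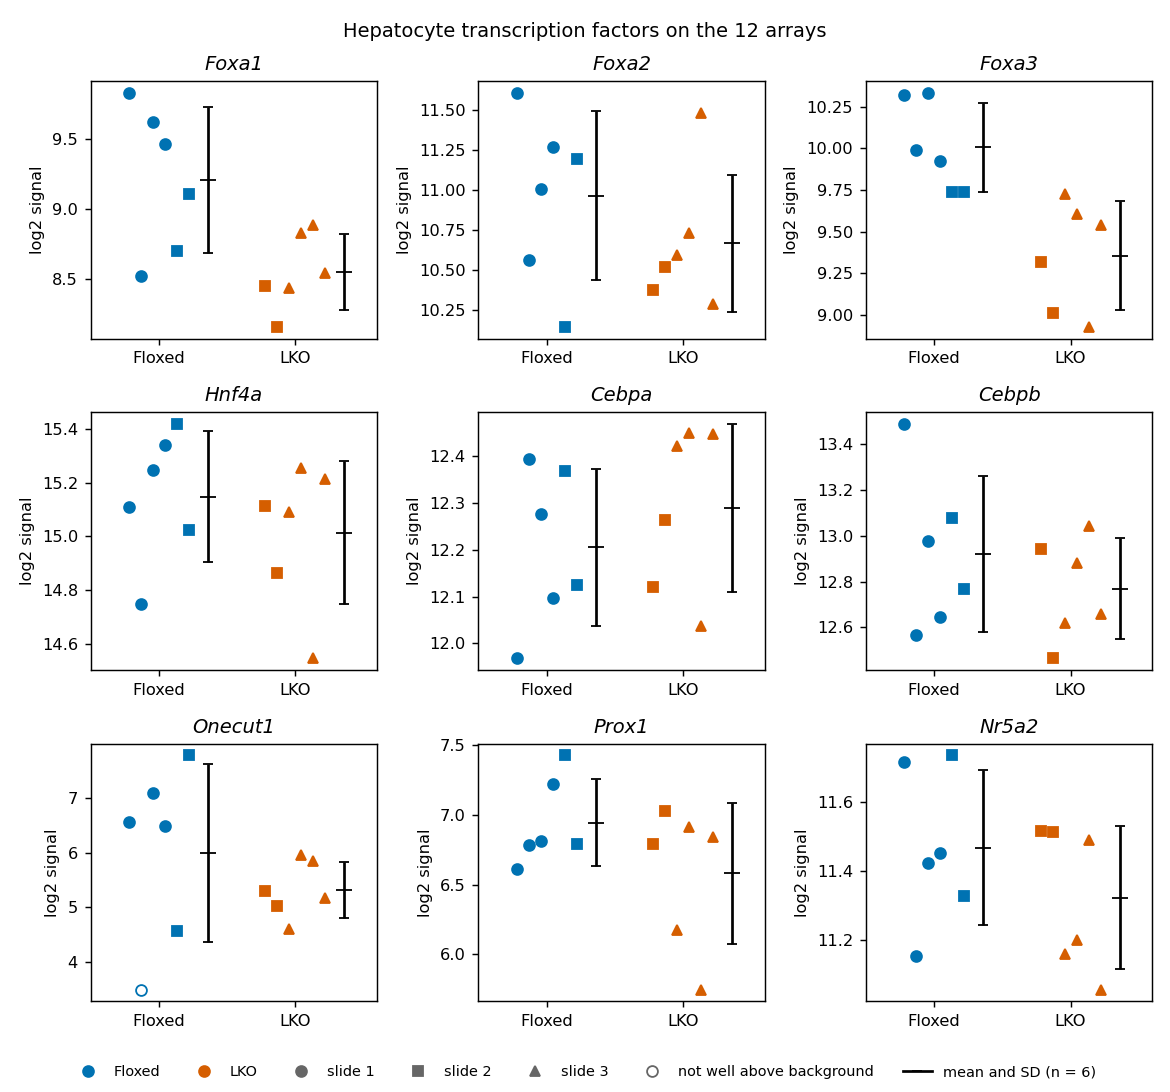
Quantile-normalized log2 signal of the 9 factors (vertical axes, each with its own range) on the 12 arrays, with Floxed mice in blue, LKO mice in orange, the slide by symbol, an open symbol where the spot was not well above background, and bars for mean and SD (n = 6). For Foxa3 all 6 LKO mice lie below the lowest Floxed mouse at 9.74, while for Hnf4a and Cebpa most of the 2 groups' ranges overlap.

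Foxa3, the paralog that rises in the mature hepatocyte, had a log2 signal in Floxed mice of 9.74 at the lowest, 9.96 at the median and 10.33 at the highest. In LKO mice the lowest was 8.93, the median 9.43 and the highest 9.73. All 6 LKO mice lay below all 6 Floxed mice, but the groups nearly touched. LKO mouse 3 was at 9.725 and Floxed mice 6 and 5 were at 9.736 and 9.740, a gap far smaller than the SD of either group. Only 50 of the tested genes (0.296%) had groups that did not overlap. The mean was 10.01 ± 0.267 (SD, n = 6) in Floxed and 9.36 ± 0.328 (SD, n = 6) in LKO mice, so that Foxa3 fell by 0.65 on the log2 scale (standard error 0.161, 95% interval -1.0 to -0.31), a fold of 0.636. The unadjusted limma p was 0.00136 and the limma p with Benjamini-Hochberg adjustment was 0.273. The exact permutation p, from a two-sided comparison of the 6 against 6 values, was 0.00216, the smallest that this design allows. It takes this value whenever 2 groups of 6 do not overlap. Earlier results of these data had already shown that for Foxa3, so this p is no separate support. Within slide 2 Foxa3 was at 9.74 in Floxed and 9.17 in LKO mice, a difference of -0.57. Unadjusted limma p values were 0.0413 with slide as a fixed block, 0.000876 with slide as a random block and 0.0172 on slide 2 alone. Without LKO mice 1 and 2 the difference was -0.56, with an unadjusted limma p of 0.00978.

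Foxa1, which shares its early role in liver formation with Foxa2, had a log2 signal in Floxed mice of 8.52 at the lowest, 9.28 at the median and 9.83 at the highest. In LKO mice the lowest was 8.16, the median 8.50 and the highest 8.88. The groups overlapped, with 3 of 6 LKO mice below every Floxed mouse and the 3 highest values of all in Floxed mice 1, 3 and 4 of slide 1. The mean was 9.21 ± 0.523 (SD, n = 6) in Floxed and 8.55 ± 0.270 (SD, n = 6) in LKO mice, and Foxa1 fell by 0.66 on the log2 scale (standard error 0.218, 95% interval -1.13 to -0.18), a fold of 0.635. The unadjusted limma p was 0.0101, the limma p with Benjamini-Hochberg adjustment 0.391, and the two-sided exact permutation p 0.0303. Within slide 2 the means were 8.90 in Floxed and 8.31 in LKO mice, a difference of -0.60. A fit with slide as a fixed block gave a limma p of 0.120. Without LKO mice 1 and 2 the difference was -0.53 with a limma p of 0.0540, so that Foxa1 was not called in either. Foxa1 was called with slide as a random block (-0.66, limma p 0.00686) and on slide 2 alone (limma p 0.0332).

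Foxa2 was read by 2 probes, both well above background on all 12 arrays, of which the brighter entered the test. On it the log2 signal in Floxed mice was 10.15 at the lowest, 11.10 at the median and 11.60 at the highest, and in LKO mice 10.29, 10.56 and 11.48. The groups overlapped along most of their range, and the highest LKO value, that of mouse 5, lay well apart from the 5 others at 10.29 to 10.73. The mean was 10.96 ± 0.526 (SD, n = 6) in Floxed and 10.67 ± 0.427 (SD, n = 6) in LKO mice. The difference of -0.30 (standard error 0.249) was not called, with an unadjusted limma p of 0.257 and an exact permutation p of 0.294, and it was -0.22 within slide 2, -0.19 without LKO mice 1 and 2 and -0.17 without Floxed mouse 1. Its 95% interval of -0.83 to 0.24 holds both no difference and a difference as large as that of Foxa1 or Foxa3. The other probe gave 9.33 in Floxed and 9.01 in LKO mice, a difference of -0.32, and its highest LKO value was again that of mouse 5.

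**Figure D2:**
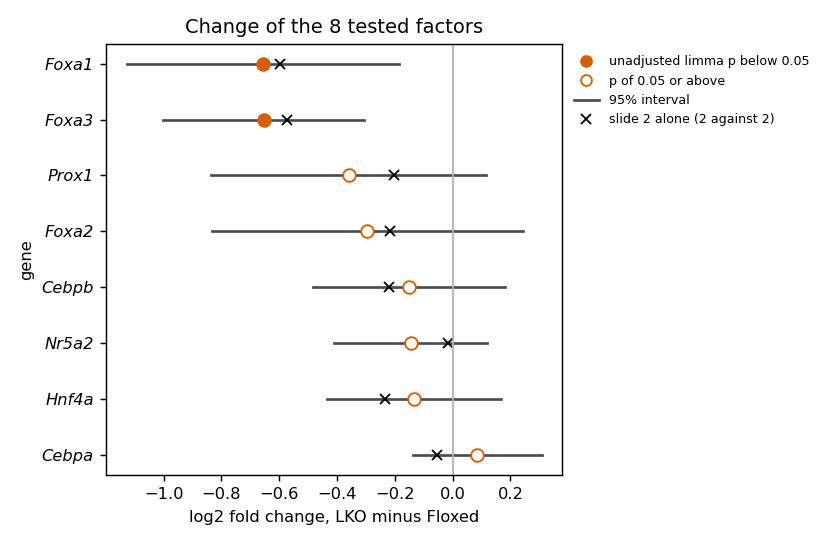
Log2 fold change, LKO minus Floxed, of the 8 tested factors (horizontal axis), with the 95% limma interval as a line, filled points for an unadjusted limma p below 0.05 and crosses for slide 2 alone (2 against 2 mice). Only the intervals of Foxa1 and Foxa3 leave out 0, and the cross of Cebpa lies on the other side of 0 from its point.

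The changes of the paralogs were set against each other through the difference of 2 log2 signals on the same array, which removes what the genes share on an array. Since signals of different probes have no common scale, only the change of such a difference between the genotypes is read. Foxa3 minus Foxa1 was 0.80 ± 0.389 (SD, n = 6) in Floxed and 0.80 ± 0.414 (SD, n = 6) in LKO mice. The change of 0.0023 had a 95% exact permutation interval of -0.53 to 0.49 and a two-sided exact permutation p of 0.996, and the interval allows either gene to have fallen further than the other. Foxa2 minus Foxa1 was 1.38 to 2.09 in Floxed and 1.75 to 2.60 in LKO mice, and 3 of 6 LKO mice lay above every Floxed mouse. Its change was 0.36 (exact permutation interval -0.035 to 0.76, exact p = 0.0758, Benjamini-Hochberg adjusted over the 3 pairs 0.227). Foxa3 minus Foxa2 was -1.45 to -0.41 in Floxed and -2.55 to -0.75 in LKO mice, with the lowest value in LKO mouse 5. Its change of -0.36 had an exact permutation interval of -1.10 to 0.37 and an exact p of 0.323 (adjusted 0.484), and without LKO mouse 5 it was -0.11. Foxa1 and Foxa3 passed the unadjusted threshold and Foxa2 did not, but no test of a pair showed that the paralogs changed by different amounts.

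**Figure D3:**
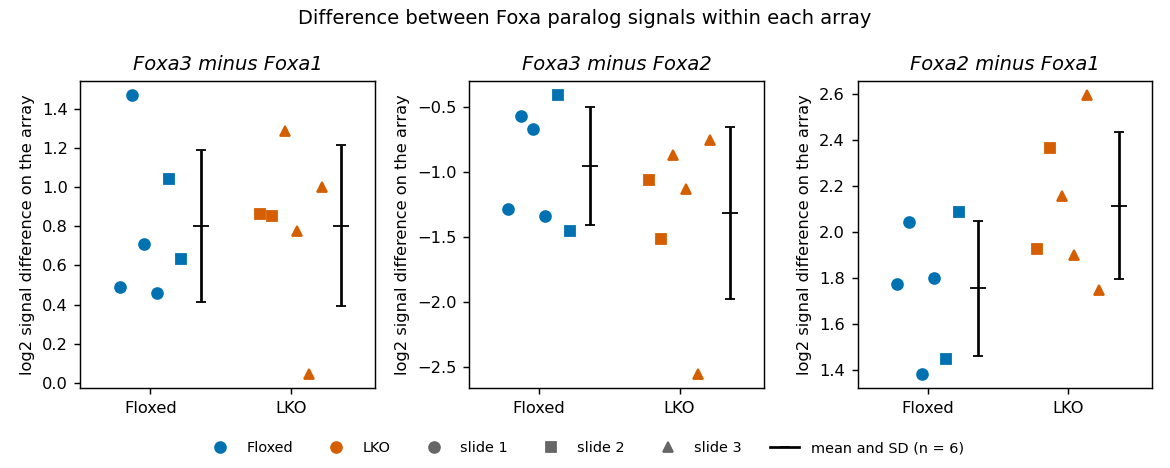
Difference of the log2 signals of 2 Foxa paralogs on the same array (vertical axes) in Floxed (blue) and LKO (orange) mice, with the slide by symbol and bars for mean and SD (n = 6). Foxa3 minus Foxa1 has a mean of 0.80 in both genotypes, and LKO mouse 5 is the lowest point for Foxa3 minus Foxa2.

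Apart from genotype, Foxa1 and Foxa2 went up and down together from mouse to mouse. With each genotype centred on its own mean, Foxa1 and Foxa2 had a Pearson r of 0.774 over 12 mice (permutation p = 0.00681, adjusted over the 3 pairs 0.0204) and a Spearman rho of 0.748 (permutation p = 0.0154, adjusted 0.0463). Within each genotype the r was 0.844 in Floxed and 0.664 in LKO mice. It was 0.719 with each genotype centred slide by slide, a value for which no p was computed. Without the mice farthest from the median of Foxa2, Floxed mouse 1 and LKO mouse 5, r was 0.685. Foxa3 and Foxa1 had an r of 0.408 (permutation p = 0.181, adjusted 0.271) and a rho of 0.287 (permutation p = 0.355, adjusted 0.532), with 0.143 when centred slide by slide and 0.577 without LKO mice 2 and 5. Within each genotype the r of this pair was 0.693 in Floxed and 0.053 in LKO mice. Foxa3 and Foxa2 had an r of -0.011 (permutation p = 0.972) and a rho of -0.077 (permutation p = 0.821), with -0.36 when centred slide by slide and 0.366 without LKO mice 2 and 5. Here the r was 0.502 in Floxed and -0.53 in LKO mice. Whether these correlations differ between pairs or genotypes was not tested. Among all 28 pairs of tested factors, r ran from -0.74 for Foxa2 and Cebpa to the 0.774 of Foxa1 and Foxa2. Hnf4a and Prox1 had an r of 0.661, and Foxa2 and Prox1 one of -0.67. Correlations of like size were thus not confined to the paralogs, and the adjustment covers only the 3 Foxa pairs.

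The slide moved with all 3 paralogs. Floxed mice of slide 2 minus those of slide 1 gave -0.46 for Foxa1, -0.44 for Foxa2 and -0.41 for Foxa3. LKO mice of slide 3 minus those of slide 2 gave 0.37, 0.32 and 0.28. The Foxa signals on slide 2 were thus the lower ones in both genotypes, and the slide's part in the results was not tested beyond the within-slide values above. The scatter between mice of 1 genotype was wide for Foxa2 and Foxa1, with pooled SDs of 0.479 and 0.416 against a median of 0.222 over all tested genes, and it was 0.299 for Foxa3.

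**Figure D4:**
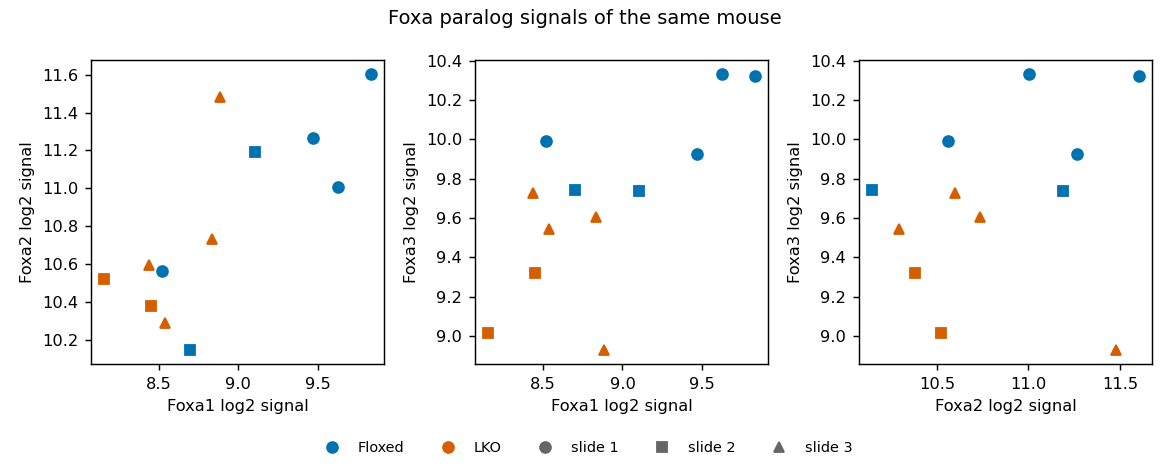
Log2 signal of 1 Foxa paralog against another in the same mouse, with Floxed in blue, LKO in orange and the slide by symbol (12 mice, axes cut to the range of the values). Foxa2 is higher where Foxa1 is higher in both genotypes, and LKO mouse 5 stands apart with a high Foxa2 signal of 11.48 and the lowest Foxa3 signal of 8.93.

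The genes whose genotype-centred signal was most like that of each paralog were found among 12512 tested genes with a symbol. This is a description over 12 mice that share arrays and normalization. The highest of so many correlations over so few mice can be large for unrelated genes too. No chance level was computed, so no link between the genes is read from the values. For Foxa1 these were Rab7 (r = 0.885), a small GTPase of late endosomes, Cops4 (0.864), a subunit of the COP9 signalosome, and Tada1 (0.850), a subunit of the SAGA coactivator. For Foxa2 they were Cish (0.914), an inhibitor of cytokine receptor signaling through Stat5, Nol10 (0.909) and Pop7 (0.892), a subunit of ribonuclease P. For Foxa3 they were Fxr2 (0.909), an RNA-binding relative of the fragile X protein, Ube2j1 (0.864), a ubiquitin-conjugating enzyme of the endoplasmic reticulum, and Lurap1l (0.850). No gene was on more than 1 of the 3 short lists, which says little for lists of 3 genes drawn from 12512.

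Hnf4a, the nuclear receptor of the network, had a log2 signal of 14.75 at the lowest, 15.18 at the median and 15.42 at the highest in Floxed mice, and of 14.55, 15.10 and 15.25 in LKO mice. The groups overlapped, and the lowest value of all was that of LKO mouse 5. The mean was 15.15 ± 0.242 (SD, n = 6) in Floxed and 15.01 ± 0.265 (SD, n = 6) in LKO mice. The difference of -0.13 (95% limma interval -0.44 to 0.17) was not called, with an unadjusted limma p of 0.352, and it was -0.23 within slide 2, -0.12 without LKO mice 1 and 2 and -0.041 without LKO mouse 5. The interval leaves out a fall of Hnf4a as large as the point estimates of Foxa1 and Foxa3, though the difference between these changes was not tested.

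Cebpa had the narrowest interval among the 8 tested factors. Its log2 signal was 11.97 at the lowest, 12.20 at the median and 12.39 at the highest in Floxed mice, and 12.04, 12.34 and 12.45 in LKO mice. LKO mice 3, 4 and 6 lay above every Floxed mouse, and the other 3 lay inside the Floxed range. The difference of 0.085 (95% limma interval -0.14 to 0.31, unadjusted limma p 0.427) was the only one above 0, and within slide 2 it was -0.055 and without LKO mice 1 and 2 it was 0.13, so no direction is read from it. Cebpb, which is induced in acute phase responses and in fasting, had a log2 signal of 12.57, 12.87 and 13.49 in Floxed and of 12.47, 12.77 and 13.04 in LKO mice as lowest, median and highest. The groups overlapped, with Floxed mouse 1 highest, and the difference of -0.15 (interval -0.48 to 0.18, unadjusted limma p 0.344) was not called and came to -0.22 within slide 2, -0.12 without LKO mice 1 and 2 and -0.038 without Floxed mouse 1.

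Nr5a2 had a log2 signal of 11.15, 11.44 and 11.73 in Floxed and of 11.06, 11.34 and 11.52 in LKO mice as lowest, median and highest on the brighter of its 2 probes. The groups overlapped, and the difference of -0.15 (95% limma interval -0.41 to 0.12, unadjusted limma p 0.255) was not called and came to -0.016 within slide 2, -0.24 without LKO mice 1 and 2 and -0.092 without Floxed mouse 5. The other probe gave -0.17, and 0.15 within slide 2. Prox1 had a log2 signal of 6.61, 6.80 and 7.43 in Floxed and of 5.75, 6.82 and 7.03 in LKO mice. LKO mice 3 and 5 lay below every Floxed mouse and the other 4 lay inside the Floxed range. The difference of -0.36 (interval -0.83 to 0.11, unadjusted limma p 0.125) was not called, and it was -0.20 within slide 2, -0.19 without LKO mouse 5 and -0.52 without LKO mice 1 and 2 (limma p 0.0519).

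Onecut1 was not tested, because its probe was well above background on 11 of the 12 arrays, with Floxed mouse 2 the exception. Its log2 signal was 3.49 at the lowest, 6.52 at the median and 7.78 at the highest in Floxed mice, and 4.60, 5.24 and 5.96 in LKO mice. Floxed mice 1, 3, 4 and 6 lay above every LKO mouse, while Floxed mice 2 and 5 lay below every LKO mouse. The SD was 1.63 in Floxed and 0.511 in LKO mice (n = 6 each), so the spread was wider in the controls, and within slide 2 the means were 6.18 and 5.17. Without the filter on dim probes the difference was -0.68 with a 95% limma interval of -2.12 to 0.76 and an unadjusted limma p of 0.324, which leaves its direction unknown.

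Other regulators of the same families were counted next, from lists written from general knowledge. Of 39 tested genes among 40 other liver transcription factors, 19 were higher and 20 lower in LKO livers. Their median log2 fold change was -0.0034, and 2 were called (5.13%, against 8.35% of all tested genes), both lower. These were Hhex, a homeobox factor of early liver formation, which fell by 0.82 on the log2 scale (standard error 0.291, unadjusted limma p 0.0145, -0.37 within slide 2), and Hlf, a PAR leucine zipper factor with a daily rhythm in liver, which fell by 0.28 (standard error 0.110, unadjusted limma p 0.0228, -0.43 within slide 2). Of 37 other forkhead genes 15 were tested, and 5 were higher and 10 lower, with a median of -0.11. Foxq1 was called among them, 1 of 15 (6.67%), which is near the share of all tested genes. Foxq1 ranged from 8.64 to 11.33 in Floxed and from 7.96 to 10.11 in LKO mice and fell by 1.30 on the log2 scale (standard error 0.441, unadjusted limma p 0.0116, -0.72 within slide 2). All 4 other C/EBP family genes were lower in LKO mice, as were 51.2% of all tested genes, and none was called, with a median of -0.12. Cebpd, the member induced with Cebpb, was at 10.02 in Floxed and 9.65 in LKO mice, with a difference of -0.26 within slide 2.

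Genes known to depend on these factors in liver were counted the same way, with no more of them called than the 8.35% of all tested genes. Of 24 genes known to depend on Foxa factors 22 were tested, and 9 were higher, 12 were lower and 1, Apoa2, held the same top value on all 12 arrays, with a median of -0.0039. The only one called (4.55%) was Pdk4, the kinase that restrains pyruvate dehydrogenase, which rose by 1.05 on the log2 scale (standard error 0.269, unadjusted limma p 0.00176, 1.87 within slide 2), opposite in sign to Foxa1 and Foxa3. Slc2a2, the glucose transporter of hepatocytes, was at 13.34 in Floxed and 13.32 in LKO mice, a difference of -0.028 over all slides and of -0.25 within slide 2. Of 34 genes known to depend on Hnf4a 30 were tested, with 12 higher, 17 lower, Apoa2 at that same value and a median of -0.016, and the only one called (3.33%) was Apoa4, an apolipoprotein, which rose by 0.69 (standard error 0.298, unadjusted limma p 0.0381, 0.27 within slide 2). Of 24 genes known to depend on C/EBP factors 23 were tested, with 10 higher, 13 lower, none called and a median of -0.0078. Several genes stand on more than 1 of these lists, and none of the genes named here passed the Benjamini-Hochberg adjusted limma threshold.

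Markers of other liver cells that express some of these factors were read beside them. Of 10 cholangiocyte markers 6 were tested, and their mean log2 signal was 5.89 to 6.24 in Floxed and 5.87 to 6.26 in LKO mice. Cftr, the chloride channel of bile duct cells, was the only one called (16.7%, against 8.35% of all tested genes). It fell by 0.83 (standard error 0.377, unadjusted limma p 0.0471, -1.49 within slide 2). Epcam, Krt7, Muc1 and Sox9 were not well above background on every array. Of 7 lymphatic endothelium markers 3 were tested, all lower, with a mean log2 signal of 5.09 to 5.70 in Floxed and 4.79 to 5.52 in LKO mice. Mmrn1, Nts and Pdpn were not tested, and Ccl21a had no probe. Of the 3 tested, Lyve1 is also counted among sinusoidal endothelium markers and Reln among stellate cell markers below. Only Flt4, the receptor of lymphatic growth factors, was called among the 3 (33.3%, against 8.35% of all tested genes). It fell by 0.42 (standard error 0.0922, unadjusted limma p 0.000579, -0.40 within slide 2). The part of bile duct cells in the Foxa1 and Foxa3 results and of lymphatic cells in the Prox1 values was not tested. None of the 9 tested hepatocyte markers was called. Their signals lie near the top of the scale, where Apoa2 held 18.86 on every array, and quantile normalization limits the change that such genes can show.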

How the data were processed

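Liver RNA of 6 Floxed and 6 LKO mice was hybridized to Agilent mouse arrays. The authors deposited scanner intensity values for each spot, made with Agilent Feature Extraction (version 9.5.1.1 per the labels, 10.7.1.1 per the file headers) without normalization across arrays, and a quantile-normalized intensity table. The RNA kit differs between the labels and the methods. Here the log2 of each processed intensity was quantile-normalized across all 12 arrays, 1377 control spots per array were left out, outlier spots (0.298%) were set to missing, and spots of a probe were averaged. The methods' detection p was replaced by the scanner software's well-above-background mark, required on all 12 arrays (20404 of 39429 probes). The brightest probe stood for a gene. RefSeq accessions were carried by 28389 probes, and the gene table named 94.3% of them. Genotypes were compared with limma 3.58.1 in R 4.3.3 without covariates. Array number limits precision, and depth in reads does not apply. The members and lists were chosen with earlier results of these data known. Named are all members, called genes of each list, defining markers, the 3 genes most like each Foxa paralog, Phgdh and Alb. The code was tested on simulated data. Alternatives covered scaling, background correction, the authors' table, filters, probes, thresholds, slide, replicate number and each array left out.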

Additional observations from a re-analysis of the deposited data

Results flagged for a closer look

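Of 66 groups of 6 arrays examined, 3 had a value set apart from the others by more than Dixon's critical gap, where chance gives about 3.3 (5%). Foxa2 in LKO mice was 11.48 in mouse 5 and 10.29 to 10.73 in the others on the tested probe, and 9.93 against 8.61 to 9.09 on the other probe. The mean log2 signal of the genes known to depend on Hnf4a was 13.61 in Floxed mouse 2 and 13.74 to 13.80 in the other Floxed mice.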

How the results depend on the processing

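Signal over background limits Onecut1, and with 2 mice per genotype on slide 2 the slide cannot be fully separated from genotype. Against 1413 genes called, 2791 were called when dim probes were kept, 317 with slide as a fixed block, 512 on slide 2 alone, 2172 with LKO mice 1 and 2 left out (chosen after seeing the data), 88 when the absolute log2 fold change also had to reach 1 and 0 after adjustment. Each array left out in turn gave 1103 to 1837. The methods' test, an unpaired comparison gene by gene, called 1236 genes and 2 of the factors at an unadjusted p below 0.05. At an adjusted p below 0.05, which the methods name for this test, it called 1 gene. The share of called genes that were higher was 58.9%, and 78.1% when arrays were scaled to their 75th percentile, while slide 2 alone gave 225 higher and 287 lower and the replicate block 720 and 708. Of the 8 factors 2 were called whichever array was left out, with slide as a random block and on slide 2 alone. With slide as a fixed block 1 was called, with LKO mice 1 and 2 left out 1, and 0 after adjustment or with the fold threshold. Foxa3 stayed at -0.73 to -0.57 with each array left out, and its limma p with Benjamini-Hochberg adjustment was 0.273 at -0.65. Foxa1 stayed at -0.79 to -0.53 and was called each time. Cebpa was -0.055 with slide as a fixed block and on slide 2 alone. The Foxa3 minus Foxa1 change was -0.011 with scaling to the 75th percentile, -0.13 with normexp, -0.00043 in the authors' table, -0.026 with LKO mice 1 and 2 left out, and -0.094 to 0.15 with each array left out. The Foxa2 minus Foxa1 change was 0.26 to 0.43 with each array left out and reached 0.43 (unadjusted exact permutation p = 0.0455) without LKO mouse 6, and the Foxa3 minus Foxa2 change was -0.47 to -0.11. The causes were not tested.

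The genotypes share replicate numbers and are described as littermates, and same-numbered mice have neighboring animal numbers, but the labels do not say that a number marks a litter. Correlations of the deviations of same-numbered mice were -0.24 to 0.32, above 0.1 in 3 of 6 pairs, and 2 of 6 Floxed mice correlated best with the LKO mouse of their number. With the replicate number as a block, 1428 genes and 2 of the 8 factors were called, Foxa3 was at -0.65 and Foxa1 at -0.66.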

Other observations

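Other cells of the liver and its surroundings were read from further marker lists. None of 8 Kupffer cell markers was called. All 8 were lower in LKO mice over all slides, with a mean log2 signal of 10.43 to 11.75 in Floxed and 10.18 to 11.46 in LKO mice. Within slide 2 only Marco was lower, by -0.19, and the others were higher, by 0.018 (Csf1r) to 0.17 (Timd4), so no direction is read from them. None of 8 sinusoidal endothelium, 8 stellate cell, 5 tested blood, 4 tested lymphocyte or 2 tested adipocyte markers was called either. Of 16 pancreas acinar markers 5 were tested and 8 were well above background on no array. Cel, a bile salt-activated lipase, was the only one called (20%, against 8.35% of all tested genes). It rose by 0.54 on the log2 scale (unadjusted limma p 0.00145, 0.27 within slide 2). Of 10 islet and gut epithelium markers 3 were tested, and Fabp2, a fatty acid binding protein of intestine, was the only one called (33.3%). It rose by 0.47 (unadjusted limma p 0.0253, 0.29 within slide 2).

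Cish, the gene most like Foxa2 across mice, was itself at a log2 fold change of -1.57 between the genotypes. Its unadjusted limma p was 0.0498 and its difference within slide 2 was -1.67. Tada1, listed for Foxa1, had a log2 fold change of -0.16 (unadjusted limma p 0.0293, -0.12 within slide 2). Neither was called after Benjamini-Hochberg adjustment, where no gene was.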
